A study of Danio rerio with 12 samples.

Results

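Ribosomal protein genes and the rows of the table that lie at the opposite 3' end of such a gene were described across zebrafish (Danio rerio) hearts that carry an ATF3 transgene and hearts that do not. The 8 rows were taken by name: the ribosomal protein genes rpsa, rpl4, rpl17 and rpl31, and map2k1, hwa, kcnb2 and zgc:153284, which lie near the opposite 3' ends of rpl4, rpl37, rpl7 and rps12. They are 8 of the 400 genes with values, in a table that lists 32520 genes. RNA came from cardiac tissue of the line Tg(myl7:ATF3) and of wild-type siblings of the same age. In the transgenic line the myl7 promoter, which is active in heart muscle cells, drives ATF3, a stress-induced transcription factor. Each genotype was sampled at 4 and at 12 months post-fertilization (mpf), with 3 biological replicates per group and 12 libraries in all. The labels name no other allele or agent. The sources used here do not give the number of hearts per library, the sex of the fish or the number of transgene insertions.

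The series asks what ATF3 does early and late in the heart. Ribosomal proteins join ribosomal RNA to form the small (Rps) and large (Rpl) subunits of the cytosolic ribosome, and their mRNAs are among the most abundant in most tissues, the heart included. Libraries were made with a 3' kit (QuantSeq FWD), whose reads fall close to a transcript's 3' end and on its sense strand. Where 2 genes converge, reads of one can therefore lie next to or inside the other gene, and the sources used here do not say which strand setting the authors counted with. Reads of a row and of the gene opposite it cannot be told apart in these data. Gene roles given below are those of the named gene, and are no statement about which transcript gave the reads.

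Values were FPKM (reads per kilobase of transcript, scaled by the authors for each library). Reads behind each value were recovered as whole numbers, and a library held 133852 to 1092280 reads over the 400 genes. Cytosolic rRNA held 82.7% to 90.4% of these reads in the 6 libraries of 4 mpf and 18.01% to 41.3% in those of 12 mpf, and 46 to 193 of the 400 genes were listed at 0 at 4 mpf against 3 to 9 at 12 mpf. Of 24 values of the 8 rows per group, 6 were 0 in wild-type and 2 in transgenic hearts at 4 mpf, and 1 was 0 in each genotype at 12 mpf. Over all 400 genes 31.1% of the values were 0 in wild-type and 20.2% in transgenic hearts at 4 mpf. At 12 mpf these shares were 1.33% and 1.58%. None of the 16 heart muscle markers listed for a check of the tissue, myl7 and tnnt2a among them, had values, so the label could not be checked. In bulk tissue, fewer cells of a type and less RNA per cell cannot be told apart.

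The 8 rows differ in how they meet the opposite gene, on the build GRCz11. The row map2k1 (ENSDARG00000007825, chromosome 18, 19419120 to 19451165, plus strand) and the row rpl4 (ENSDARG00000041182, chromosome 18, 19451070 to 19456269, minus strand) end tail to tail and share 96 bases. An rRNA gene of 118 bases on the other strand, which has no values, lies inside map2k1. The pair of map2k1 and rpl4 is the only one in which both rows have values. The row kcnb2 (ENSDARG00000038862, chromosome 2, 30144979 to 30177469, plus strand) stops 7 bases short of the 3' end of rpl7. The 3' ends of rpl37 and rps12 lie inside the rows hwa (ENSDARG00000094542, chromosome 21, 5192016 to 5198306, plus strand) and zgc:153284 (ENSDARG00000036876, chromosome 23, 31426493 to 31436524, minus strand), with 3705 and 3967 shared bases. All of rps12 lies inside zgc:153284, with its 3' end 9429 bases from that of the row. The 3' end of another opposite gene, sh3bgrl2, which has no values, lies 2764 bases beyond the 3' end of zgc:153284.

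The ribosomal protein rows other than rpl4 have no opposite row with values. The row rpl17 (ENSDARG00000057556, chromosome 21, 18997503 to 19067517, plus strand) spans 70015 bases, against 5200 for rpl4. It holds the whole of 2 genes of the other strand, pgam2, the muscle form of phosphoglycerate mutase, and nefma, a neurofilament subunit, and nefla and 1 rRNA gene on its own strand. The row rpl31 (ENSDARG00000053365, chromosome 9, 56225410 to 56232296, minus strand) lies 3396 bases from the 3' end of an unnamed opposite gene. The row rpsa (ENSDARG00000019181, chromosome 6, 7709662 to 7720332, minus strand) had no opposite 3' end within 5000 bases, and shared 1688 bases with ttc26 on its own strand. Within the rows rpl4 and rpsa the table places 7 and 3 snoRNA genes on the same strand, an arrangement that is common in ribosomal protein introns.

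**Figure D1:**
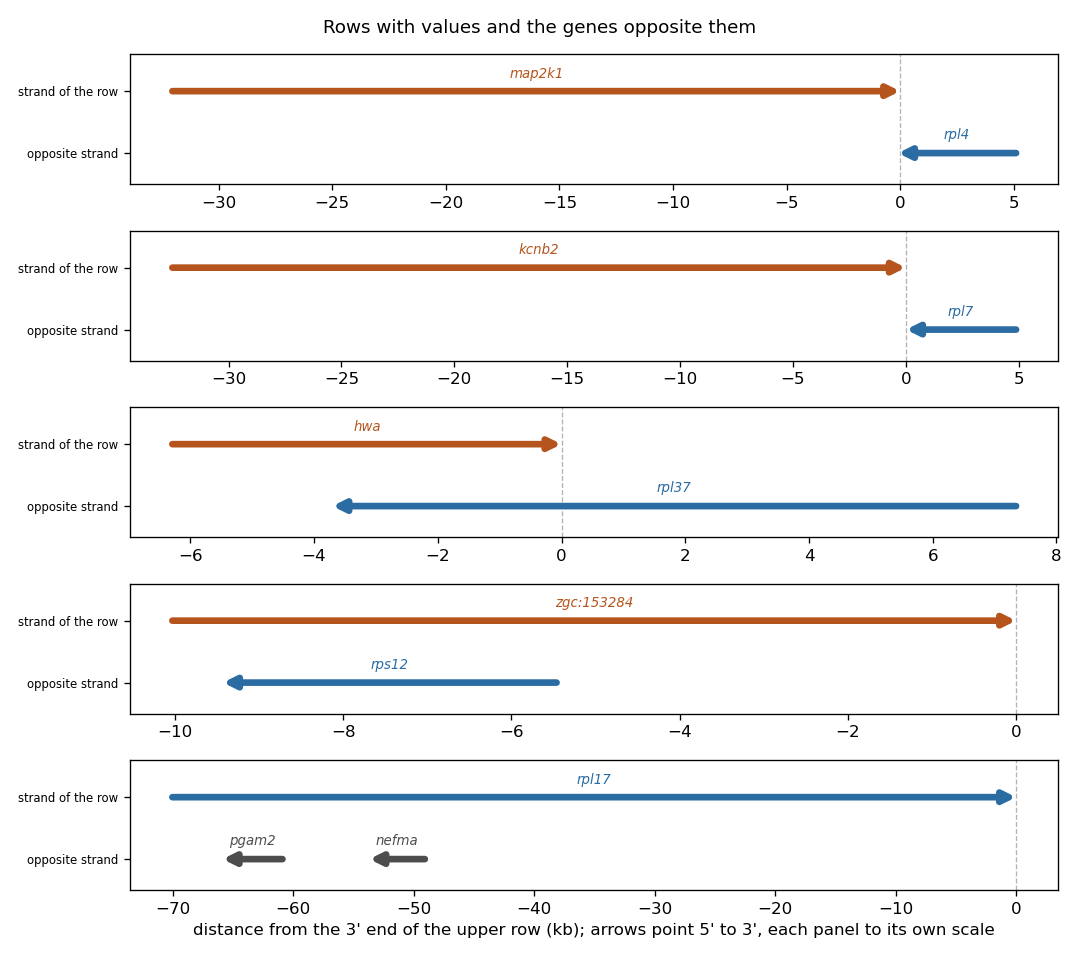
Positions of 5 of the rows (upper arrow in each panel) and of genes on the other strand (lower arrows). Distances are in kb from the 3' end of the upper row, arrows point from 5' to 3', and each panel has its own scale. The gene sh3bgrl2 opposite zgc:153284 is not drawn. The rows map2k1 and kcnb2 meet rpl4 and rpl7 end to end, hwa and zgc:153284 hold the 3' ends of rpl37 and rps12, and rpl17 holds pgam2 and nefma.

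The level of the rows ran from 0 to 346 FPKM. By the median over the 12 libraries rpl17 (168 FPKM) was the highest, followed by zgc:153284 (109), map2k1 (50.6), hwa (23.2), rpl4 (19.0), rpl31 (17.2), kcnb2 (8.90) and rpsa (1.77). The median of all 400 genes was 22.1 FPKM. FPKM divide reads by a length, recovered as 1208 to 4848 bases, although reads of this kit fall close to the 3' end. The order of the rows therefore depends on that length. By total reads it was rpl17 (2322), zgc:153284 (1012), map2k1 (685), kcnb2 (372), rpl4 (356), hwa (263), rpsa (234) and rpl31 (134). The order by FPKM was not the same in every group: zgc:153284 had the highest mean at 4 mpf in both genotypes and rpl17 at 12 mpf. In wild-type hearts at 4 mpf every neighbour in the order of means overlapped the next. In transgenic hearts at 12 mpf rpl17 and zgc:153284 stood apart from each other and from the rows below, the values of map2k1, rpl31, rpl4, hwa and kcnb2 overlapped from each to the next, and rpsa lay below kcnb2 without overlap.

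No row of the 8 passed the test between genotypes at either age. The test was limma on log2(FPKM + 1), fitted to all 400 genes and 12 libraries with Benjamini-Hochberg adjustment and a threshold of 0.05, and it called 3.25% of the 400 genes at 4 mpf and 0.0% at 12 mpf. At an unadjusted p under 0.05 it gave 2 of the 8 rows at 4 mpf (map2k1 and hwa, against 18.5% of all genes) and 1 at 12 mpf (zgc:153284, against 3.25%). Limma voom on the recovered reads also called 0 of the 8 in each comparison. The median log2 difference of the 8 rows was 0.44 at 4 mpf and 0.09 at 12 mpf, beside 0.25 and 0.07 over all 400 genes. For the 4 ribosomal protein rows alone it was -0.33 and 0.54. The first lies between rpl4 and rpl17, whose signs at 4 mpf depended on the pseudocount, so no direction is given for it. A p that misses the threshold does not show that the genotypes are alike, and the standard errors of the differences at one age ran from 0.56 to 1.52 on the log2 scale. The fit pools the spread of a row over all groups, so its standard error is the same at both ages. For zgc:153284 the SD on that scale was 1.13 (wild type) and 0.46 (transgenic) at 4 mpf, and 0.070 and 0.14 at 12 mpf. For rpl17 it was 1.69 and 0.85, then 0.34 and 0.068. For map2k1 the wild-type SD was larger at 12 mpf (0.63) than at 4 mpf (0.22).

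**Figure D2:**
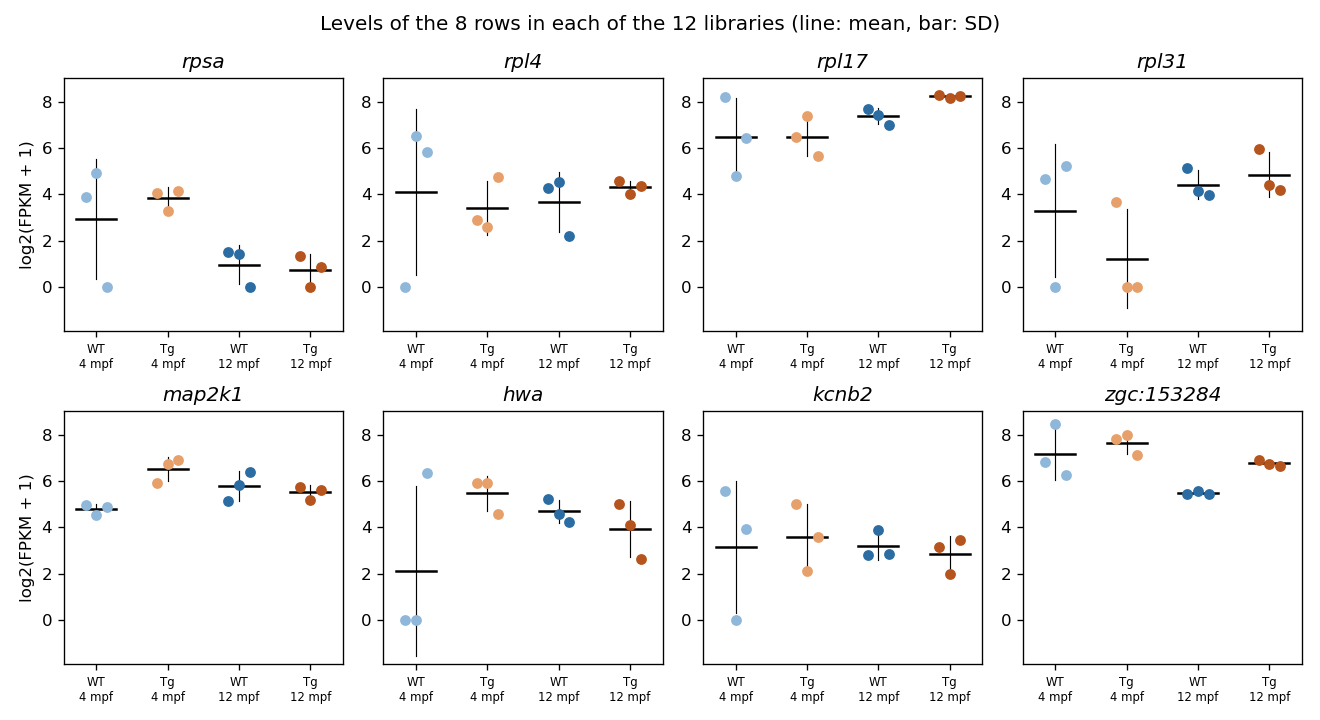
Level of each row in every library, as log2(FPKM + 1), by genotype (WT, wild type; Tg, transgenic) and age, with the group mean (line) and SD (bar, n = 3). The transgenic points lie above all wild-type points for map2k1 at 4 mpf and for rpl17 and zgc:153284 at 12 mpf; the points of 4 mpf are more widely scattered in most rows.

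Among the ribosomal protein rows, rpl4 codes for a protein of the large subunit that reaches into the wall of the exit tunnel. Its row had 0, 89.6 and 55.6 FPKM in the wild-type libraries of 4 mpf and 6.55, 5.11 and 26.1 FPKM with the transgene. The wild-type libraries lay both below and above all transgenic ones, so the groups overlapped. The later age gave 18.6, 22.1 and 3.58 FPKM in the 3 wild-type libraries and 22.8, 15.4 and 19.4 FPKM with the transgene. Here 1 wild-type library was low, on 3 reads, and the rest overlapped. The log2 difference was -0.68 (SE 1.52, limma, adjusted p = 0.848) at 4 mpf and 0.65 (SE 1.52, adjusted p = 0.999) at 12 mpf. The sign of the first turned with a pseudocount of 0.1 (log2 difference 0.29), so no direction is given for it.

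The row rpl17, whose product also lines the exit tunnel of the large subunit, had 291, 27.14 and 86.3 FPKM in the wild-type libraries of 4 mpf and 87.5, 164 and 49.4 FPKM with the transgene. The genotypes overlapped widely there. At 12 mpf the wild-type libraries had 203, 172 and 126 FPKM and the transgenic ones 310.4, 283 and 300.2 FPKM. All 3 transgenic libraries lay above all wild-type ones, by at least 80.04 FPKM, and the mean was 167 ± 38.4 against 298 ± 13.9 FPKM (SD, n = 3), 1.78 times as high. The log2 difference of 0.86 (SE 0.73) did not pass (limma, adjusted p = 0.999), and with the 6 libraries of 12 mpf alone the adjusted p was 0.28. These values rest on 95 to 206 reads in wild-type and 281 to 347 reads in transgenic libraries.

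The row rpl31, for a protein near the mouth of the exit tunnel, had 24.2, 0 and 36.3 FPKM in the wild-type libraries of 4 mpf and 11.9, 0 and 0 FPKM with the transgene. Both genotypes held a library at 0, and the largest value rested on 21 reads. At 12 mpf every library was above 0, with 34.5, 16.8 and 14.7 FPKM without the transgene and 61.1, 19.99 and 17.5 FPKM with it. The genotypes overlapped, and the log2 differences of -2.06 (SE 1.43, limma, adjusted p = 0.499) and 0.43 (SE 1.43, adjusted p = 0.999) did not pass. The first ran from -3.71 to -1.10 without 1 library. With libraries at 0 in both genotypes its size depends on the pseudocount, and it was -3.17 with a pseudocount of 0.1 and -0.95 with 10.

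The row rpsa, for a protein of the small subunit also known as the laminin receptor, had 13.7, 29.1 and 0 FPKM in the wild-type libraries of 4 mpf and 15.9, 8.64 and 16.7 FPKM with the transgene. The later libraries had 1.84, 1.71 and 0 FPKM without and 1.55, 0 and 0.81 FPKM with the transgene, on at most 4 reads in any library. The genotypes overlapped at both ages. The log2 differences were 0.90 (SE 1.11, limma, adjusted p = 0.702) and -0.25 (SE 1.11, adjusted p = 0.999). The values of 12 mpf lay close to the level of 3 reads, the limit that a count of 0 allows.

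Of the rows opposite a ribosomal protein gene, map2k1 codes for MEK1, the kinase that activates ERK in growth factor signalling. It had 30.1, 22.4 and 28.4 FPKM in the wild-type libraries of 4 mpf and 59.6, 103.9 and 119 FPKM with the transgene. Every transgenic library lay above every wild-type one, by at least 29.5 FPKM, and the mean was 27.0 ± 4.02 against 94.3 ± 31.1 FPKM (SD, n = 3). The log2 difference was 1.72 (SE 0.64, unadjusted p = 0.01997), and it did not pass (limma, adjusted p = 0.194). The later age gave 34.1, 55.3 and 83.5 FPKM in the 3 wild-type libraries and 52.6, 35.2 and 48.7 FPKM with the transgene. The groups overlapped, with a log2 difference of -0.26 (SE 0.64, limma, adjusted p = 0.999). The difference between both effects was -1.98 (SE 0.90, unadjusted p = 0.0490) and did not pass either (limma, adjusted p = 0.579). For this interaction the test called 0.5% of all genes and 0 of the 8 rows, with 1 row (map2k1) at an unadjusted p under 0.05, against 8.25% of all genes.

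The row hwa carries the name of huluwa, a maternal membrane protein that is required for the dorsal organizer of the zebrafish embryo. It had 0, 0 and 79.9 FPKM in the wild-type libraries of 4 mpf and 59.3, 58.5 and 23.2 FPKM with the transgene. The highest value of all 12 libraries and 2 zeros were in the same group, so the genotypes overlapped. The log2 difference was 3.36 (SE 1.52, unadjusted p = 0.0478) and did not pass (limma, adjusted p = 0.266). With 2 of the 3 wild-type libraries at 0, its size depends on the pseudocount. It was 5.54 with a pseudocount of 0.1 and 1.38 with 10, and the transgenic mean FPKM was 1.76 times the wild-type mean. Without wild-type replicate 3 of 4 mpf, the high library, both remaining wild-type libraries are at 0, so the fitted difference is set by the pseudocount and is not a measured fold. That fit called hwa at 4 mpf (limma, adjusted p = 0.00569), with the calls over all genes at 9.25%, and for the interaction (adjusted p = 0.0199, from 0.71 with all libraries), with those over all genes at 3.75%. At 12 mpf the wild-type libraries had 36.8, 23.2 and 17.9 FPKM and the transgenic ones 31.4, 16.2 and 5.17 FPKM, with overlap and a log2 difference of -0.78 (SE 1.52, limma, adjusted p = 0.999).

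The row kcnb2, for a subunit of a delayed rectifier potassium channel, had 46.1, 0 and 14.3 FPKM in the wild-type libraries of 4 mpf and 30.9, 3.39 and 11.1 FPKM with the transgene. The later libraries had 6.10, 13.9 and 6.34 FPKM without and 7.90, 3.02 and 9.90 FPKM with the transgene. The genotypes overlapped at both ages, and the log2 differences of 0.41 (SE 1.30, limma, adjusted p = 0.913) and -0.33 (SE 1.30, adjusted p = 0.999) did not pass. The sign at 4 mpf turned with a pseudocount of 10 (log2 difference -0.08).

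The row zgc:153284 has no role given here. It had 112, 346 and 75.6 FPKM in the wild-type libraries of 4 mpf and 222, 253 and 138 FPKM with the transgene, with overlap. The later age gave 42.4, 46.2 and 42.4 FPKM in the 3 wild-type libraries and 120.1, 106.7 and 98.9 FPKM with the transgene. The transgenic libraries all lay above the wild-type ones, by at least 52.7 FPKM, and the means of 43.7 ± 2.19 and 108.6 ± 10.7 FPKM (SD, n = 3) differed 2.49 times. The reads were 17 to 27 in wild-type and 58 to 63 in transgenic libraries. The log2 difference was 0.47 (SE 0.56, limma, adjusted p = 0.694) at 4 mpf and 1.29 (SE 0.56, unadjusted p = 0.0400, adjusted p = 0.999) at 12 mpf. With the 6 libraries of 12 mpf alone its adjusted p was 0.167 and with weighted libraries 0.0673, so it passed in none of these fits. Over both ages the difference was 0.88 (SE 0.40, unadjusted p = 0.0468) and did not pass (limma, adjusted p = 0.447), in a test that called 1.0% of all genes and 0 of the 8 rows. At an unadjusted p under 0.05 it was the 1 row of the 8, against 10.8% of all genes.

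Groups that did not overlap were counted for all genes. At 4 mpf the transgenic libraries lay wholly above the wild-type ones in 1 of the 8 rows (map2k1), against 7.25% of the 400 genes, and wholly below in 0, against 4.75%. At 12 mpf they lay wholly above in 2 of the 8 (rpl17 and zgc:153284), against 11.5%, and wholly below in 0, against 8.5%. For 1 row at 1 age the smallest p of an exact permutation test of 3 libraries against 3 is 0.1.

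**Figure D3:**
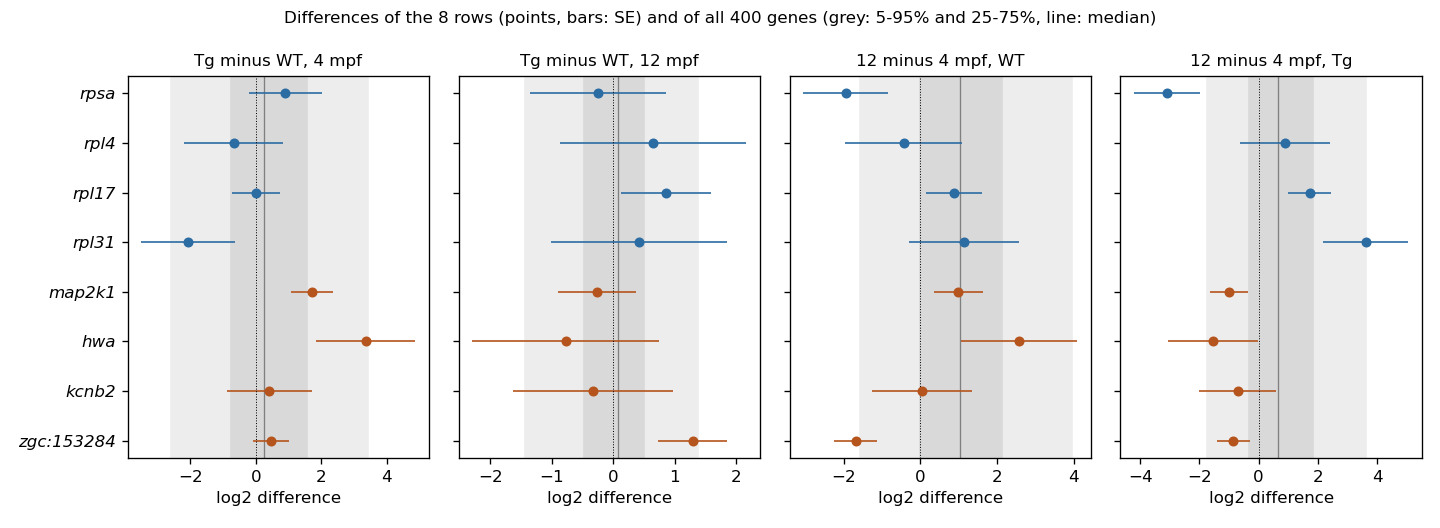
Log2 differences of the 8 rows (points; bars, SE of limma; blue, ribosomal protein rows; orange, rows opposite one) between genotypes at each age and between ages in each genotype, over the spread of all 400 genes (light grey, 5% to 95%; dark grey, 25% to 75%; grey line, median). Most points lie within the light grey range, and none passed the test; the standard errors are wide for rpl4, rpl31 and hwa.

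The rows rpl4 and map2k1 were compared directly, as the log2 ratio of map2k1 to rpl4 within each library. At 4 mpf the ratio was 4.96, -1.95 and -0.94 without the transgene, and 3.005, 4.10 and 2.15 with it. In the library at 4.96 rpl4 had 0 reads, so that value is set by the pseudocount of 1 and is not a measured ratio. The libraries of 12 mpf gave 0.84, 1.28 and 4.20 without the transgene, and 1.17, 1.14 and 1.28 with it. Thus map2k1 was above rpl4 in 10 of 12 libraries, the exceptions being wild-type replicates 2 and 3 of 4 mpf. In reads, map2k1 held 685 and rpl4 356 over all libraries, and map2k1 took 65.5% to 67.5% of the reads of both rows in the 3 transgenic libraries of 12 mpf, against 17.2% up to all of them in the wild-type libraries of 4 mpf.

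On the per-length scale map2k1 exceeded rpl4 by a mean log2 ratio of 1.77 (SD 2.06, n = 12; exact sign-flip permutation test, two-sided, p = 0.0127, adjusted p = 0.0635 over 5 tests of the pair), which did not pass. Without wild-type replicate 2 of 4 mpf the ratio was 2.11 and passed (exact permutation, adjusted p = 0.0147), as it did without replicate 3 (2.02, adjusted p = 0.0342). These are the 2 libraries in which rpl4 was above map2k1, so leaving out either must raise the mean ratio. Without any other 1 library it did not pass (exact permutation, adjusted p = 0.0928 to 0.127). On recovered reads it was 1.56 and did not pass (exact permutation, adjusted p = 0.151). Between genotypes the mean ratio at 4 mpf was 0.69 ± 3.73 without and 3.09 ± 0.98 with the transgene (SD, n = 3), a difference of 2.40 (exact permutation test, p = 0.4, adjusted p = 0.855). It was 4.53, 1.08 and 1.58 without wild-type replicate 1, 2 or 3 of 4 mpf, and 1.46 with a pseudocount of 0.1. At the later age it was 2.11 ± 1.83 and 1.197 ± 0.0748 (SD, n = 3), a difference of -0.91 (exact permutation test, p = 0.7, adjusted p = 0.855). That difference turned to 0.13 without wild-type replicate 3 of 12 mpf, the library in which rpl4 rested on 3 reads. Over both ages the difference was 0.74 (exact permutation test within age, p = 0.53, adjusted p = 0.855; 0.083 to 1.81 without 1 library), and between ages it was -0.23 (exact permutation test within genotype, p = 0.855, adjusted p = 0.855).

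**Figure D4:**
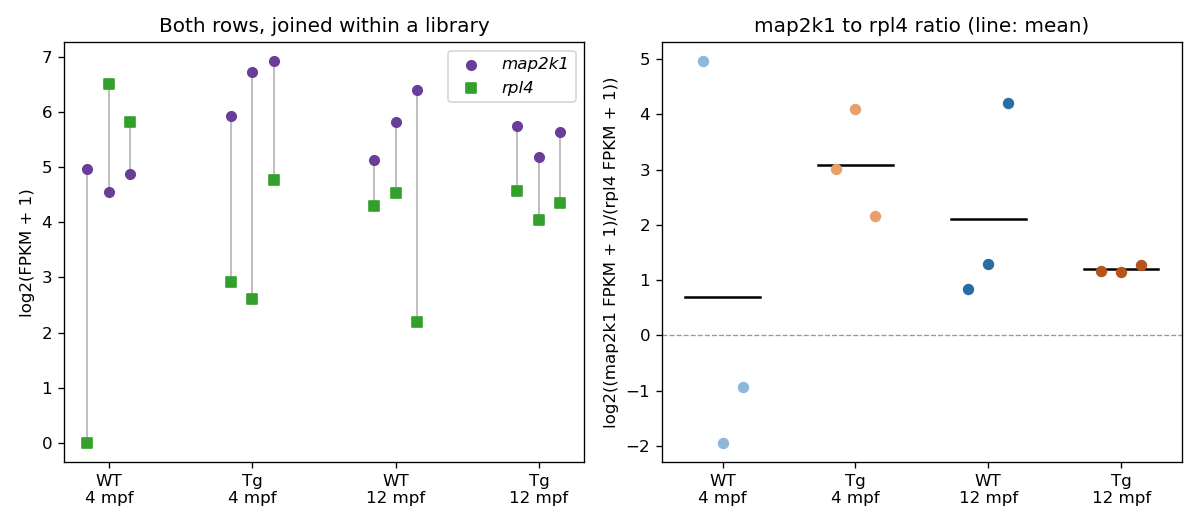
Left, log2(FPKM + 1) of map2k1 (circles) and rpl4 (squares) in each library, joined within a library; right, their log2 ratio with the group mean (line), n = 3 per group. The ratio is above 0 in 10 of 12 libraries, spans -1.95 to 4.96 in wild-type hearts at 4 mpf and lies within 1.14 to 1.28 in transgenic hearts at 12 mpf. The value of 4.96 is from a library with rpl4 at 0 reads and is set by the pseudocount.

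Across libraries the levels of rpl4 and map2k1 showed no relation past the threshold. Over the 12 libraries Pearson's r was -0.251 (permutation test, p = 0.439, adjusted p = 0.658) and Spearman's rho -0.301 (permutation test, p = 0.343, adjusted p = 0.533). Without the 2 libraries farthest from the median of rpl4, r was -0.534. Within the 6 libraries of 4 mpf r was -0.181 (exact permutation, p = 0.742, adjusted p = 0.742) and rho -0.486 (p = 0.356, adjusted p = 0.533). Within those of 12 mpf r was -0.657 (exact permutation, p = 0.179, adjusted p = 0.537) and rho 0.0286 (p = 1.0, adjusted p = 1.0), over 3 relations in the family. Wild-type replicate 3 of 12 mpf had the lowest rpl4 of that age (3.58 FPKM, on 3 reads) and the highest map2k1 (83.5 FPKM). In the other libraries of 12 mpf rpl4 ran from 15.4 to 22.8 FPKM, and r without that replicate was not computed.

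Between the ages 0 of the 8 rows passed in either genotype. Limma called 4.0% of the 400 genes in wild-type and 3.5% in transgenic hearts, and at an unadjusted p under 0.05 it gave 1 row (zgc:153284, against 23.0% of all genes) and 3 rows (rpsa, rpl17 and rpl31, against 19.0%). All libraries of 4 mpf had more rRNA reads and more genes at 0 than any of 12 mpf, as given above, so age and library quality cannot be told apart. The median log2 difference of the 8 rows was 0.46 in wild-type and -0.79 in transgenic hearts, beside 1.03 and 0.64 over all genes. For the 4 ribosomal protein rows alone it was 0.22 and 1.31, with rpsa going the other way in both genotypes (-1.95 and -3.10). The value in wild-type hearts rests in part on rpl4, whose sign there depended on the pseudocount.

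In transgenic hearts the ages did not overlap in 5 of the 8 rows, 2 higher at 12 mpf (against 22.2% of all genes) and 3 lower (against 11.2%). The rows rpl17 and rpl31 were higher at 12 mpf, by log2 differences of 1.73 (SE 0.73, limma, adjusted p = 0.238) and 3.62 (SE 1.43, adjusted p = 0.211). The row rpl31 was at 0 in 2 of the 3 transgenic libraries of 4 mpf, so the size of its difference depends on the pseudocount. It was 5.82 with a pseudocount of 0.1 and 1.58 with 10. Its nearest libraries had 11 reads at 12 mpf and 8 reads at 4 mpf. The rows rpsa, map2k1 and zgc:153284 were lower, by -3.10 (SE 1.11, adjusted p = 0.165), -0.997 (SE 0.64, adjusted p = 0.443) and -0.87 (SE 0.56, adjusted p = 0.447). The difference of rpsa was -4.65 with a pseudocount of 0.1 and -1.12 with 10. The other rows, rpl4, hwa and kcnb2, overlapped, with 0.89, -1.55 and -0.71.

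In wild-type hearts the ages did not overlap in 2 of the 8 rows, map2k1, which was higher at 12 mpf (against 16.8% of all genes), and zgc:153284, which was lower (against 7.5%). For map2k1 the nearest libraries had 32 reads at 12 mpf and 36 reads at 4 mpf. The log2 differences of map2k1 and zgc:153284 were 0.99 (SE 0.64, limma, adjusted p = 0.386) and -1.69 (SE 0.56, adjusted p = 0.11). Those of rpsa, rpl4, rpl17, rpl31, hwa and kcnb2 were -1.95, -0.44, 0.88, 1.13, 2.58 and 0.04, and for rpl4 and kcnb2 the sign depended on the pseudocount. For rpl31 and hwa the size did, with 2.20 and 4.75 at a pseudocount of 0.1 and 0.30 and 0.76 at 10. The row hwa was at 0 in 2 libraries of 4 mpf, and its mean was 26.6 FPKM at 4 mpf and 26.0 FPKM at 12 mpf. Without wild-type replicate 3 of 4 mpf 3 rows passed in wild-type hearts, in a fit that called 17.8% of all genes: rpsa at -3.41 (limma, adjusted p = 0.0171), zgc:153284 at -2.15 (adjusted p = 0.0229), and hwa (adjusted p = 0.0108), which is at 0 in both remaining libraries of 4 mpf. That library had the fewest genes at 0 of the wild-type libraries of 4 mpf, and the spread of the remaining pair is assumed to be like that of the other groups.

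The rows were set beside other genes of the same pathways. Of 85 listed cytosolic ribosomal protein genes 83 were found in the table, and 5 had values: the 4 above and faub, which codes for a fusion of a ubiquitin-like protein with the small subunit protein S30. In 37 of the 83 the 3' end lay inside or within 5000 bases of a row of the other strand, and in 4 of these the opposite row had values, namely map2k1, hwa, kcnb2 and zgc:153284. At 4 mpf faub had 1065, 159.7 and 487 FPKM without the transgene and 451, 759 and 12.3 FPKM with it. Its means were 192 ± 81.3 and 259 ± 45.4 FPKM (SD, n = 3) at 12 mpf. None of the 5 passed between genotypes or ages, and their median log2 difference between genotypes was -0.68 at 4 mpf and 0.50 at 12 mpf, beside 0.25 and 0.07 over all genes. A median of 5 genes is the value of 1 gene, here rpl4 at 4 mpf and faub at 12 mpf. The sign for rpl4 at 4 mpf depended on the pseudocount, so no direction is given for the 5 genes there.

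The other lists held few genes with values. Of 34 translation factors 1 had values, the initiation factor gene eif1b, with 753 ± 283 FPKM at 12 mpf without the transgene and 512 ± 322 FPKM with it (SD, n = 3), and it did not pass between genotypes or ages. Of 27 ribosome biogenesis genes 0 had values. The rows map2k1, kcnb2 and hwa were the 1 gene with values each of 28 genes from RAS to ERK, 23 voltage-gated potassium channel genes and 11 genes of dorsal determination.

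For each row the genes with the most similar pattern were named by Pearson's r of log2(FPKM + 1) over the 12 libraries, as a description. These points share the library, and genes listed at 0 in the same libraries of 4 mpf can score high, which was not tested. The rows rpl17, map2k1 and zgc:153284 were above 0 in all 12 libraries. They were appl2 (r = 0.909) and dut (0.858) for rpl4, dazap2 (0.889) and ybey (0.882) for rpl17, and pappaa (0.933) and coro6 (0.86) for rpl31. For rpsa they were nek4 (0.82) and slc19a1 (0.782). For map2k1 they were txndc5 (0.863) and zc3h14 (0.784), for hwa rab7a and tfpt (0.936 each), for kcnb2 acy3.2 (0.845) and mapkapk3 (0.812), and for zgc:153284 nek4 (0.82) and ergic3 (0.795). Between the 8 rows themselves r ran from -0.672 (rpsa and rpl31) to 0.73 (rpsa and zgc:153284), and between the 4 ribosomal protein rows it was below 0 in all pairs but rpl17 and rpl31 (0.676).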

How the data were processed

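RNA was measured in 12 libraries, 3 for each genotype and age, grouped by the titles. The deposited values were FPKM, per the name of the authors' table. GRCz11 is the build, and Trim Galore, STAR, RSEM and DESeq2 the tools, per the submitters' processing notes. The sources used here give no versions, annotation or strand setting. Library factors were solved from 12 mitochondrial genes and a length for each gene, and all 400 genes gave whole reads within 0.0001. No molecular identifiers are named, so reads are not independent molecules. FPKM were used without further scaling as log2(FPKM + 1). A gene was tested if 3 or more libraries reached 1 FPKM, which all 400 and all 8 rows did. The 4 group means were fitted with limma 3.58.1 in R 4.3.3 (eBayes with trend and robust), two-sided, adjusted by Benjamini-Hochberg over 400 genes. The fit was also run on simulated data with normal noise, a smaller spread than the real values and no added zeros. That run checks the code and does not show how the test performs on these data. The pair map2k1 and rpl4 was tested by exact permutation (Python 3.11.15, scipy 1.17.1). All 8 rows are named whatever their values, and for each the 2 most similar genes. The gene name table held all 8 identifiers and calls rpsa RPSA2 and kcnb2 kcnb2a. The members, lists and tests were chosen with earlier results of these data known. Alternatives were other pseudocounts, filters, scaling, weights, eBayes settings, voom, a replicate block, the libraries of 1 age, and leaving out each library. A value of 0 allows up to 3 reads, for counting error only.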

Additional observations from a re-analysis of the deposited data

Results flagged for a closer look

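For the row map2k1 the ages lay on opposite sides in the 2 genotypes: in wild-type hearts all 3 libraries of 12 mpf were above all of 4 mpf, by at least 3.97 FPKM, and in transgenic hearts all were below, by at least 7.01 FPKM. The nearest wild-type libraries had 34.1 FPKM on 32 reads at 12 mpf and 30.1 FPKM on 36 reads at 4 mpf. Their order thus comes from the scaling of each library. Over all genes 16.8% lay wholly higher at 12 mpf in wild-type hearts, and 11.2% wholly lower in transgenic hearts. How many genes did both was not counted. The difference between both effects was -1.98 on the log2 scale (SE 0.90), and it did not pass (limma, adjusted p = 0.579, from 0.346 to 0.924 over its alternatives).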

How the results depend on the processing

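No alternative but leaving out 1 library called any of the 8 rows in any of the 6 comparisons. Leaving out 1 library gave 0 to 1 row between genotypes at 4 mpf, 0 to 1 for the interaction and 0 to 3 between ages in wild-type hearts, the higher counts all without wild-type replicate 3 of 4 mpf. Over all 400 genes the calls ranged over the alternatives from 0 to 37 at 4 mpf (13 as reported), 0 to 2 at 12 mpf (0), 2 to 14 over both ages (4), 0 to 15 for the interaction (2), and 1 to 71 in wild-type (16) and 0 to 22 in transgenic hearts (14) between ages. The titles do not say whether replicate numbers pair the libraries. Deviations of same-numbered libraries correlated from -0.411 to 0.0761 and those of other pairs from -0.1875 to 0.404, which does not decide it. The replicate block called 0 of the 8 rows in each comparison and 9 genes at 4 mpf. For the log2 ratio of map2k1 to rpl4 between genotypes the block cannot move the difference of means, which is 2.40 and -0.91 at 4 and 12 mpf by either way. Only the p can change, and it was 0.5 and 0.75 (exact sign-flip permutation, adjusted p = 0.855 for both). Some signs turned. With a pseudocount of 0.1 that of rpl4 did at 4 mpf (-0.68 to 0.29) and between ages in wild type (-0.44 to 0.54, and 0.11 with voom). With a pseudocount of 10 those of rpl17 (-0.033) and kcnb2 (-0.080) did at 4 mpf. So did those of kcnb2 between ages in wild type (-0.37, and -0.017 with median-of-ratios scaling) and the map2k1 to rpl4 ratio between ages (0.12). For hwa at 4 mpf the sign held and the difference ran from 1.38 to 5.54 over the alternatives. Without 1 library each, the log2 differences at 4 mpf ran from -0.56 to 1.89 for rpsa, -2.73 to 0.52 for rpl4, -0.82 to 0.86 for rpl17, -3.71 to -1.10 for rpl31, -1.17 to 1.61 for kcnb2 and 0.010 to 1.099 for zgc:153284. At 12 mpf they ran from -0.74 to 0.12 for rpsa, -0.090 to 1.08 for rpl4, -0.12 to 0.79 for rpl31, -0.59 to 0.045 for map2k1 and -0.62 to 0.10 for kcnb2. Between ages they ran from -2.49 to 0.76 for rpl4, -0.51 to 2.10 for rpl31 and -1.55 to 1.23 for kcnb2 in wild type, and -1.43 to 0.0035 for kcnb2 in transgenic hearts. The ratio of map2k1 to rpl4 ran from 1.08 to 4.53 between genotypes at 4 mpf, 0.083 to 1.81 over both ages, -1.55 to 0.13 at 12 mpf, -0.89 to 0.83 between ages, and 1.48 to 2.11 as a level. What caused these changes was not tested. At 12 mpf the row rpsa rests on at most 4 reads in a library.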
